A study of Mus musculus with 14 samples.

Results

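The genes described here encode the subunits of oxidative phosphorylation (OXPHOS), and they were followed in 14 libraries of mouse tumors that differ in PI3K gamma. They were taken by symbol: every gene of the deposited tables whose symbol starts with Ndufa, Ndufb, Ndufc, Ndufs, Ndufv, Uqcr, Cox4, Cox5, Cox6, Cox7, Cox8 or Atp5, without the Ndufaf assembly factors, together with Sdha, Sdhb, Sdhc and Sdhd. This gave 73 nuclear genes, of which 34 belong to complex I, 4 to complex II, 8 to complex III, 11 to complex IV and 16 to complex V. The 13 protein-coding genes of the mitochondrial genome were taken as well and are shown apart, 7 of complex I, 1 of complex III, 3 of complex IV and 2 of complex V. The 86 genes are part of 12924 genes in each table, and all 86 passed the minimum of normalized counts in both. A few symbols match by their prefix without naming a structural subunit of the complex they are counted under. Ndufab1 is an acyl carrier protein that also sits in complex I, Ndufa4 is now assigned to complex IV and Ndufa4l2 is its relative, Cox7a2l helps to join complexes III and IV, and Atp5s and Atp5sl are not core subunits of the ATP synthase.

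Lewis lung carcinoma (LLC) cells, a transplantable mouse lung tumor line, had been grown in the flank for 14 days in C57BL/6 wild-type (WT) mice or in p110g-/- mice, which lack PI3K gamma (gene Pik3cg). In both genotypes the host carries the difference and the tumor cells are the same line. Tumor-associated macrophages (TAM), sorted as CD11b+Gr1- cells at 1000000 cells a sample, gave 4 WT and 4 p110g-/- libraries. Pieces of 30 mg of whole tumor gave 3 WT and 3 p110g-/- libraries. Separate mice are not named for the libraries of a group, so the p-values reflect the spread among libraries, part of which may be technical.

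Complexes I to IV form the respiratory chain of the inner mitochondrial membrane. Complex I (NADH dehydrogenase) and complex II (succinate dehydrogenase) pass electrons to coenzyme Q, complex III passes them on to cytochrome c, and complex IV (cytochrome c oxidase) passes them to oxygen. Complexes I, III and IV pump protons, and complex V, the ATP synthase, uses their return flow to make ATP. Complex II is encoded by nuclear genes alone, while the other complexes combine nuclear subunits with subunits made inside the organelle from its own genome. Macrophages shift between glycolysis and respiration with their state of activation, and solid tumors do so with their oxygen supply.

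A TAM library held an estimated 19.7 to 40.7 M (1e6) reads and a whole tumor library 32.1 to 44.6 M, so 3 reads correspond to 1.79 to 5.81 normalized counts. Pik3cg held 3745, 4477, 3070 and 2748 normalized counts in WT TAM 1 to 4 and 2203, 2211, 1210 and 1401 in p110g-/- TAM 1 to 4. It held 487, 616 and 527 in the WT tumors and 242, 279 and 417 in the p110g-/- tumors. Within each table all p110g-/- values were lower than all WT values, with RNA still counted. Which part of the gene was deleted is not stated in the labels. Its log2 fold change was −1.02 (SE 0.24, adjusted p = 0.299 with limma, 0.00557 with the library number as a term of the fit, called the replicate block) in TAM and −0.83 (SE 0.19, adjusted p = 0.0555) in whole tumor. Of 11 macrophage markers, 10 were in the tables and summed to 304365 to 418887 normalized counts in TAM and 45929 to 71010 in whole tumor. None of these 10 was at 0 in any library.

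The share of RNA that came from these genes was taken in each library, as a first view that needs no comparison between tables. The 73 nuclear genes made up 1.05%, 1.04% and 1.04% of the normalized counts of all nuclear genes in WT tumors 1 to 3 and 0.973%, 0.971% and 0.962% in the p110g-/- tumors. The 3 p110g-/- tumors were below the 3 WT tumors, without overlap. In TAM the same share was 0.704%, 0.801%, 0.963% and 1.02% in WT libraries 1 to 4 and 0.720%, 0.830%, 0.891% and 0.907% in p110g-/- libraries 1 to 4, so the genotypes overlapped and the library number went with the larger difference.

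The 13 mitochondrial genes took 3.16%, 3.32% and 3.02% of all normalized counts in the WT tumors and 2.49%, 2.80% and 3.01% in the p110g-/- tumors. In TAM they took 2.51%, 3.06%, 7.70% and 9.59% in WT against 2.73%, 3.21%, 9.01% and 14.4% in p110g-/- libraries. TAM libraries numbered 3 and 4 were above those numbered 1 and 2 in both genotypes, and within each number the p110g-/- library was the higher. The ratio of mitochondrial to nuclear OXPHOS normalized counts was 2.63 to 3.31 in whole tumor, and in TAM it ran from 3.65 in WT library 1 to 18.6 in p110g-/- library 4. Fibroblast markers, 6 of 6 in the tables, also went with the TAM number. They summed to 2538, 25909, 47384 and 52862 normalized counts in WT TAM 1 to 4 and to 661, 8590, 41138 and 29871 in p110g-/- TAM 1 to 4, with none of the 6 at 0. The estimated depth was 40.7, 31.0, 26.8 and 28.3 M reads in WT TAM 1 to 4 and 40.2, 29.9, 24.2 and 19.7 M in p110g-/- TAM 1 to 4. Keratin genes of the carcinoma cells followed the number too, Krt8 with 76, 499, 1573 and 1648 in WT TAM 1 to 4 and 46, 197, 1569 and 1194 in p110g-/- TAM 1 to 4. The part of these markers and of depth in the mitochondrial share was not tested.

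**Figure D1:**
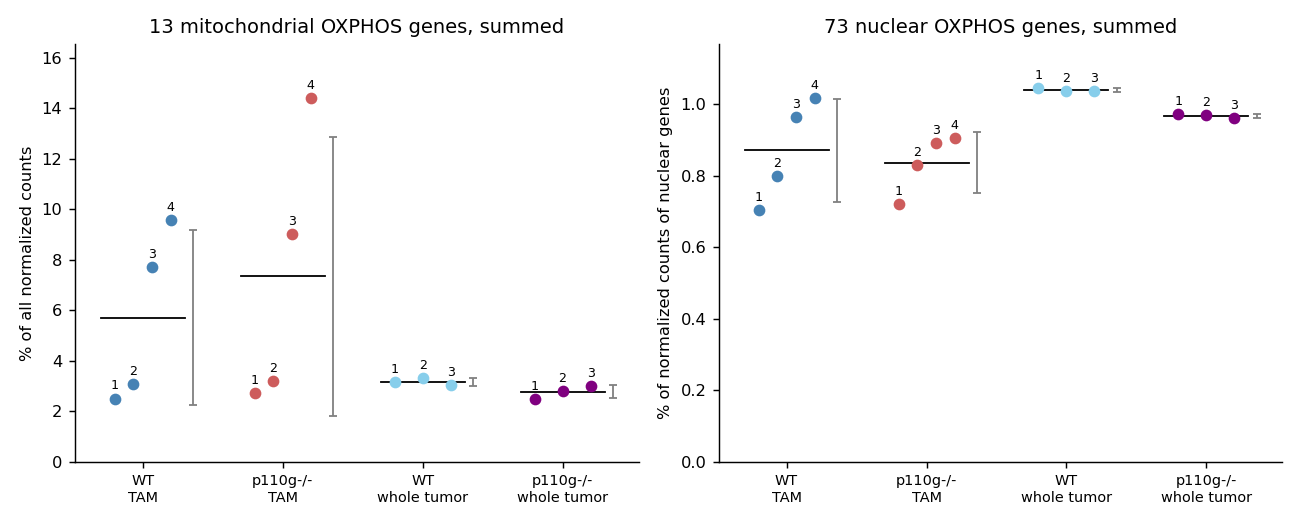
Summed share of the 13 mitochondrial OXPHOS genes (left, % of all normalized counts) and of the 73 nuclear OXPHOS genes (right, % of the normalized counts of nuclear genes) in each library. Points are libraries with their label number, lines are group means and grey bars are 1 SD. The mitochondrial share spreads from 2.51% to 14.4% among TAM libraries and from 2.49% to 3.32% among whole tumors, and the nuclear share of the p110g-/- tumors lies below that of the WT tumors.

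In whole tumor, 6 of the 73 nuclear genes fell in p110g-/- mice and none rose, where fell and rose mean an adjusted p under 0.05 in limma over all 12717 genes tested. Over all genes 4.35% were called, 2.1% lower and 2.25% higher. The 6 genes belong to 3 complexes: Cox8a and Cox6a1 to complex IV, Ndufa6, Ndufv2 and Ndufa7 to complex I, and Atp5d to complex V. The log2 fold change was below 0 for 70 of the 73 genes, against 48.4% of all genes tested, with a median of −0.14 against 0.01. The exceptions were Atp5sl, Ndufa4l2 and Sdha. In 46 of the 73 all 3 p110g-/- tumors were below all 3 WT tumors, an order found in 15.4% of all genes, and 42 of 73 had an unadjusted p under 0.05 in the lower direction, against 12.6% of all genes. None was higher at that level or without overlap, against 13.7% and 15.7% of all genes. In bulk RNA, fewer cells of a type and less RNA per cell cannot be told apart.

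Cox8a, the ubiquitous form of the small subunit VIII of cytochrome c oxidase, held 4112, 4392 and 4782 normalized counts in WT tumors 1 to 3 and 3443, 3267 and 3608 in the p110g-/- tumors (log2 fold change −0.36, SE 0.07, adjusted p = 0.0319). Cox6a1, the form of subunit VIa found outside muscle, held 3578, 3797 and 3991 in WT against 3077, 2925 and 3056 in p110g-/- tumors (−0.33, SE 0.05, adjusted p = 0.0272). In both genes the lowest WT tumor was above the highest p110g-/- tumor. Both are nuclear subunits that surround the catalytic core of complex IV.

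Ndufa6, an accessory subunit of complex I, held 1732, 1714 and 1838 normalized counts in WT against 1416, 1414 and 1475 in p110g-/- tumors (log2 fold change −0.30, SE 0.05, adjusted p = 0.0286). Ndufv2, an iron-sulfur subunit of the NADH-oxidizing part of complex I, held 2639, 2384 and 2482 in WT against 2150, 2045 and 2147 in p110g-/- tumors (−0.24, SE 0.05, adjusted p = 0.0498). Neither gene overlapped between the genotypes. Ndufa7, another accessory subunit, held 2620, 2721 and 2814 in WT against 2399, 2322 and 2223 in p110g-/- tumors (−0.23, SE 0.05, adjusted p = 0.0489). Atp5d, the delta subunit in the central stalk of the ATP synthase, held 5232, 5520 and 5871 in WT against 4623, 4551 and 4573 in p110g-/- tumors (−0.27, SE 0.05, adjusted p = 0.0351). In Atp5d the 3 p110g-/- tumors were close to each other and the 3 WT tumors spread more widely above them.

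**Figure D2:**
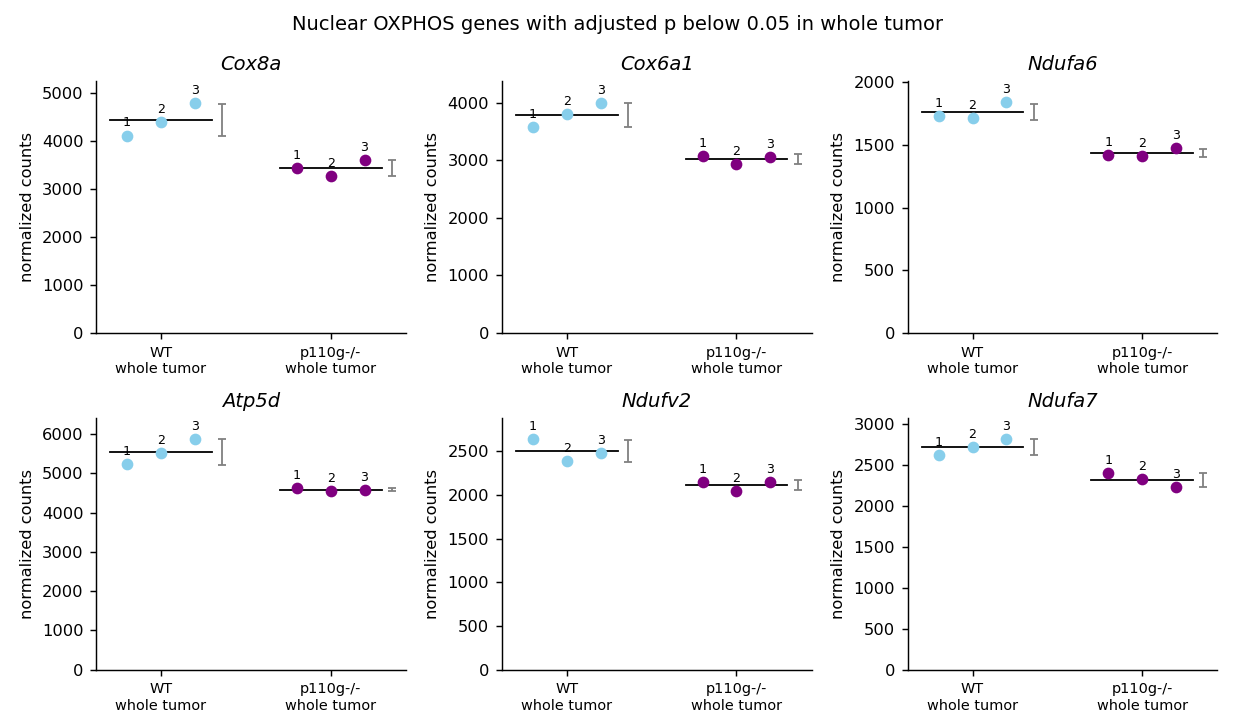
Normalized counts of the 6 nuclear OXPHOS genes with an adjusted p under 0.05 in whole tumor, by genotype. Points are libraries with their label number, lines are group means and grey bars are 1 SD, and each axis starts at 0. In all 6 genes the 3 p110g-/- tumors lie below the 3 WT tumors, for example 3443, 3267 and 3608 against 4112, 4392 and 4782 for Cox8a.

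These calls were close to the threshold and moved with the libraries. Without any single library among WT 1, WT 2, WT 3, p110g-/- 2 and p110g-/- 3, 0 of the 73 genes were called. Over all genes, 0.228% to 1.2% were called in those fits. Without p110g-/- 1, 23 of the 73 were called, where 15.7% of all genes were called and 8.01% called lower. In these fits 68 to 71 of the 73 stayed below 0. Markers of other cells differed between the tumors in the same comparison. Of 5 markers of carcinoma epithelium 3 were in the tables, and their sum was 13807 to 14576 normalized counts in the WT and 9106 to 10398 in the p110g-/- tumors, nearly all from Krt8 and Krt18, with none at 0. The 7 of 9 T, NK and B cell markers that were in the tables summed to 113 to 224 in WT and 463 to 647 in p110g-/- tumors, with none at 0. The part of these cells in the OXPHOS values was not tested.

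The stretch before the start site is shown for the 3 called genes with the largest fall, because members moved in the same direction and 2 factors, NRF1 and GABP (also called NRF2), are known for binding promoters of respiratory genes. The sequences are the 250 bases before the start in RefSeq's promoters (GRCm38.p6), 5′ to 3′ on the gene's strand. Capitals mark matches on either strand to GCGCA and GCGC with any 1 base between them (NRF1), to CCGGAAG (GABP) or to AAGATGG (YY1). No match overlaps another. The windows are chr19:7217617-7217866 (minus strand) for Cox8a, chr5:115348959-115349208 (minus strand) for Cox6a1 and chr15:82354292-82354541 (minus strand) for Ndufa6.
Cox8a: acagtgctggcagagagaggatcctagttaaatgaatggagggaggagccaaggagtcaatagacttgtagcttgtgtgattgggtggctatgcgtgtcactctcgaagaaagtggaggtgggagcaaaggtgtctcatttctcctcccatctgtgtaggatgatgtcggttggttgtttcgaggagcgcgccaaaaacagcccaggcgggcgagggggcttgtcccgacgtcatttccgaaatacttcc
Cox6a1: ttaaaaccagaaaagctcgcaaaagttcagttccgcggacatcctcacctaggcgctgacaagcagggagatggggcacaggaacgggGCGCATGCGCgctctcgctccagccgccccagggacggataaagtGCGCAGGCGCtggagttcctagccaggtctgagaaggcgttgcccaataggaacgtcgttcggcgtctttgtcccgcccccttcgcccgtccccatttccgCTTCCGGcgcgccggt
Ndufa6: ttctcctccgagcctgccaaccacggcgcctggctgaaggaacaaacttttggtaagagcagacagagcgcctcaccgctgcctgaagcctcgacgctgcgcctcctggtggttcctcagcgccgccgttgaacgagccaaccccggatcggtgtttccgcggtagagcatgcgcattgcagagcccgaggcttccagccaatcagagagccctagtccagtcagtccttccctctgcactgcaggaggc
The Cox6a1 window held 2 NRF1 matches, starting 162 and 117 bases before the start, and 1 GABP match starting 16 bases before it. The Cox8a and Ndufa6 windows, and those of Atp5d, Ndufv2 and Ndufa7, held no match to these letters. Of the 73 nuclear genes 60 were matched to the promoter table by gene identifier. An NRF1 match was found in 16.7% of these 60 genes, in 9.03% of 10076 genes of the tables tested in whole tumor and in 3.74% of all 32851 windows of the same length. The corresponding shares for GABP were 20.0%, 15.6% and 6.91%, and for YY1 they were 3.33%, 5.26% and 4.49%. These are counts of letters in the windows, which are not known binding sites.

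By complex, the median log2 fold change in whole tumor was −0.14 for complex I, −0.07 for complex II, −0.14 for complex III, −0.18 for complex IV and −0.13 for complex V. The shares of nuclear RNA taken by complexes I, III, IV and V did not overlap between genotypes, while complex II overlapped. Complex IV, for example, took 0.162%, 0.162% and 0.168% in WT against 0.146%, 0.146% and 0.150% in p110g-/- tumors. Complex II took 0.0755%, 0.0743% and 0.0749% in WT against 0.0738%, 0.0759% and 0.0728% in p110g-/- tumors.

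In complex I, 33 of 34 genes were below 0, from −0.30 in Ndufa6 and −0.27 in Ndufa12 to −0.02 in Ndufv1, the subunit that binds NADH. Only Ndufa4l2 was above, at 0.15, with 67, 91 and 122 normalized counts in WT against 117, 85 and 102 in p110g-/- tumors. All 4 complex II genes missed the threshold, with log2 fold changes of 0.01 for Sdha, the flavoprotein, −0.16 for Sdhb, the iron-sulfur subunit, and −0.07 and −0.06 for the membrane anchors Sdhc and Sdhd. Sdha held 7914, 7932 and 7989 normalized counts in WT against 8064, 8087 and 7788 in p110g-/- tumors.

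All 8 complex III genes were below 0 and none passed, from −0.25 for Uqcrq (SE 0.08, adjusted p = 0.0956) and −0.20 for Uqcrh (SE 0.04, adjusted p = 0.0516) to −0.09 for Uqcr10 and −0.08 for Uqcrb. Uqcrh, the acidic hinge subunit, held 4703, 4702 and 4853 in WT against 4190, 4001 and 4236 in p110g-/- tumors, without overlap. All 11 complex IV genes were below 0, with Cox4i2 at −0.37 (SE 0.27) on means of 21.3 and 16.3 normalized counts, Cox7a1 at −0.33 (SE 0.21), and Cox6b1 and Cox6c at −0.12 and −0.08. In complex V, 15 of 16 were below 0. Atp5g2, a gene for the membrane ring subunit c, had the most negative log2 fold change of the 73 and did not pass, with 410, 416 and 498 in WT against 314, 364 and 276 in p110g-/- tumors (−0.48, SE 0.13, adjusted p = 0.0703). Atp5g1, another gene for the same subunit, had −0.05, and Atp5sl had 0.20.

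**Figure D3:**
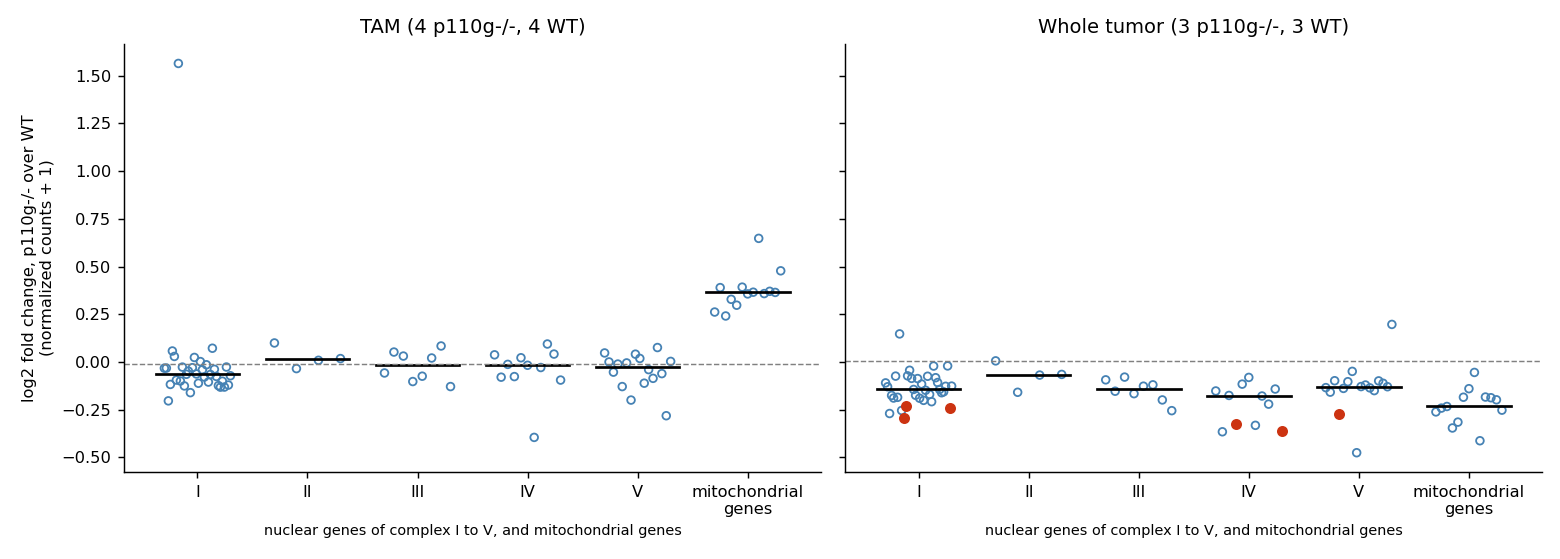
Log2 fold change, p110g-/- over WT, of each of the 73 nuclear OXPHOS genes by complex and of the 13 mitochondrial genes, in TAM (left) and whole tumor (right). Each point is a gene, filled red where the adjusted p is under 0.05, black lines are medians and the dashed line is the median of all genes tested (−0.01 and 0.01). In whole tumor 70 of 73 nuclear and 13 of 13 mitochondrial genes lie below 0, and in TAM all 13 mitochondrial genes lie above 0.

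The mitochondrial genes were also lower in value in the p110g-/- tumors, and none of the 13 passed the test. All 13 log2 fold changes were below 0, with a median of −0.23, 6 of 13 were lower without overlap between genotypes (15.4% of all genes), and 5 of 13 had an unadjusted p under 0.05 in limma (12.6% of all genes in that direction). ND3, a membrane subunit of complex I, had the lowest adjusted p. It held 4547, 4643 and 4917 normalized counts in WT against 3974, 3685 and 3007 in p110g-/- tumors (−0.41, SE 0.10, adjusted p = 0.0565). COX2, the subunit that receives electrons from cytochrome c, held 81503, 75293 and 83934 in WT against 62903, 61513 and 64901 in p110g-/- tumors (−0.35, SE 0.08, adjusted p = 0.0566). COX3 had −0.31 and ATP6, the proton channel subunit of the ATP synthase, had −0.26. The smallest value was that of ND2, −0.05, with 21340, 22255 and 20119 in WT against 18169, 20765 and 22612 in p110g-/- tumors.

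The remaining mitochondrial genes had −0.25 (ND6), −0.24 (ATP8), −0.23 (COX1), −0.20 (ND5), −0.19 (ND4L), −0.18 (ND4 and CYTB) and −0.14 (ND1). COX1 held 279918, 304184 and 269190 in WT against 220519, 241000 and 265754 in p110g-/- tumors, where the third p110g-/- tumor came close to the lowest WT tumor. Without p110g-/- tumor 1 the median of the 13 genes was −0.10, and 2 of them were called, where 15.7% of all genes were. With quantile normalization the median was −0.12 and 11 of 13 were below 0, COX1 standing at 0 and ND2 at 0.07.

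In TAM, none of the 73 nuclear OXPHOS genes passed the test between genotypes in limma, and 1 of them, Ndufa4l2, had an unadjusted p under 0.05, in the higher direction. Over all 12475 genes tested 0.112% were called, 0.0721% higher and 0.0401% lower, and at an unadjusted p under 0.05 3.53% were higher and 2.34% lower. The median log2 fold change was −0.04 against −0.01 for all genes, and 50 of 73 were below 0 against 53.2% of all genes. By complex the medians were −0.06, 0.01, −0.02, −0.02 and −0.03 for complexes I to V. With the replicate block 1 of 73 was called, higher, where 1.01% of all genes were called higher and 1.49% lower.

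That gene was Ndufa4l2, a relative of Ndufa4 known to be induced by hypoxia through HIF1. It held 28, 10, 14 and 29 normalized counts in WT TAM 1 to 4 and 73, 57, 34 and 72 in p110g-/- TAM 1 to 4. Every p110g-/- library was above every WT library, an order found in 2.37% of all genes and its reverse in 1.93%, at low levels throughout. Its log2 fold change was 1.56 (SE 0.44, adjusted p = 0.438, 0.0439 with the block), and the call with the block was lost when any of the 4 numbers was left out. Ndufa4 itself held 1392, 2081, 2758 and 2955 in WT against 1761, 1680, 2577 and 2383 in p110g-/- TAM, with overlap. Markers of immediate-early response and dissociation stress, Hspa1a and Hspa1b among them, were 11 of 11 in the tables, with none at 0. They summed to 90932 to 157146 in WT and 153337 to 232653 in p110g-/- TAM, and their part in the TAM values was not tested.

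Apart from Ndufa4l2, the nuclear genes lay between −0.39 and 0.10 in TAM. Complex I ran from −0.20 (Ndufa12, SE 0.09) and −0.16 (Ndufab1) to 0.07, Ndufa4l2 apart, and complex II reached 0.10 in Sdha. Complex III ran from −0.13 (Uqcrq) and −0.10 (Uqcrc1) to 0.08 (Uqcrh). Complex IV ran from −0.39 (Cox7a1, SE 0.31) to 0.09 (Cox7a2l), and complex V from −0.28 (Atp5s, SE 0.20) and −0.20 (Atp5g1, SE 0.14) to 0.08. The 6 genes that fell in whole tumor overlapped between genotypes in TAM, Cox8a for example with 3747, 4975, 5451 and 6076 in WT against 3521, 5635, 4456 and 5373 in p110g-/- libraries.

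The 13 mitochondrial genes were all above 0 in TAM and none passed the test, also at an unadjusted p under 0.05 in limma. The median log2 fold change was 0.36, and the groups overlapped in all 13 because the libraries of each genotype spread widely. COX1, the catalytic subunit of complex IV and the gene with the smallest value, held 281255, 344947, 845686 and 1037595 in WT against 279364, 336272, 990790 and 1785000 in p110g-/- TAM (0.24, SE 0.75). For numbers 1 and 2 the p110g-/- library was slightly below the WT library, and for numbers 3 and 4 it was above. Without p110g-/- TAM 4, 11 of the 13 genes were below 0, while without both libraries numbered 4, with the block, 0 were.

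ND3 had the largest value. It held 4050, 6839, 20543 and 26206 in WT TAM 1 to 4 and 7598, 9404, 28361 and 44337 in p110g-/- TAM 1 to 4 (0.65, SE 0.76, adjusted p = 0.999). Within every number the p110g-/- library was the higher, and with the block its adjusted p was 0.0191. That call was lost without both libraries numbered 2, 3 or 4 (adjusted p = 0.0767, 0.0596 and 0.0963 in limma) and held without both numbered 1 (0.0154). ND6, which is read from the other strand, held 14386, 12470, 30701 and 41147 in WT against 16453, 15881, 43163 and 75566 in p110g-/- TAM (0.48, SE 0.59), and the remaining genes ran from 0.26 to 0.39. Side by side by number, the median log2 ratio of the 13 genes was 0.18, 0.16, 0.31 and 0.79 for numbers 1 to 4, and for the nuclear genes it was −0.05, 0.08, −0.10 and −0.07.

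Whether the genotype effect differed between TAM and whole tumor was tested as the difference of both effects over all 14 libraries. No nuclear and no mitochondrial OXPHOS gene passed in limma, where 0.145% of 12396 genes were called, 0.0403% higher and 0.105% lower. At an unadjusted p under 0.05, 2 nuclear and 0 mitochondrial genes were higher and none lower, against 2.87% and 3.62% of all genes. The median difference, TAM minus whole tumor, was 0.09 for the nuclear genes, 65 of 73 above 0 (29 of 73 below 0 when libraries were scaled to their nuclear total), and 0.56 for the mitochondrial genes, 13 of 13 above 0. For all genes it was −0.02. ND3 had a difference of 1.06 (SE 0.96, adjusted p = 1.00), which passed with the replicate block (adjusted p = 0.00851), where 0.428% of all genes were called higher and 2.21% lower. The mitochondrial genes thus had opposite signs in the 2 tables, while a difference was called for ND3 with the block alone. In TAM, 11 of the 13 genes were below 0 without p110g-/- TAM 4 alone. Without both libraries numbered 4, with the block, 0 of the 13 were below 0. The block of the difference fit also grouped tumors by number, although same-numbered tumors did not deviate together (r = 0.0676, 0.0889 and 0.200).

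Several subunits come in forms encoded by separate genes, and the ratio of 2 forms inside a library does not depend on its scaling. Of 6 pairs of forms tested, 3 differed between the 8 TAM and the 6 whole tumor libraries by an exact two-sided permutation test over 3003 splits. The splits counted every library as separate, although same-numbered TAM libraries deviated together (r = 0.532 to 0.857), so these p-values may be too small. Cox7a1, the form of subunit VIIa known from heart and skeletal muscle, was 2.79-fold higher relative to Cox7a2, the ubiquitous form, in TAM. The log2 ratio was −4.72 ± 0.38 (SD, n = 8) in TAM and −6.20 ± 0.22 (SD, n = 6) in whole tumor, without overlap (exact permutation p = 0.000333, the smallest these splits can give, adjusted p = 0.000999). Cox7a1 held 154, 83, 141 and 122 normalized counts in WT TAM and 34, 41 and 47 in WT tumors. The 3 skeletal muscle markers of 13 that were in the tables, Mylpf, Tnni2 and Tnnt3, summed to 260 to 457 in TAM and 192 to 268 in whole tumor, with none at 0. Tnni2 alone held 182 to 317 in TAM and 47 to 87 in whole tumor. Mylpf stood in the opposite order, at 24 to 39 in TAM and 60 to 75 in whole tumor. Tnnt3 overlapped, at 39 to 140 and 76 to 115. The part of these genes in the ratio was not tested.

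Cox7a2l stood in the opposite order, at a log2 ratio to Cox7a2 of 1.26 ± 0.15 (SD, n = 8) in TAM and 1.75 ± 0.04 (SD, n = 6) in whole tumor (exact permutation p = 0.000333, adjusted p = 0.000999). Every TAM library was below every whole tumor library. Atp5g1 relative to Atp5g3, which encode the same mature subunit c, was at −0.87 ± 0.21 (SD, n = 8) in TAM and −1.26 ± 0.06 (SD, n = 6) in whole tumor (exact permutation p = 0.00233, adjusted p = 0.00466). Here the groups overlapped, because p110g-/- TAM 3 held 3013 of Atp5g1 and 7264 of Atp5g3, a ratio within the range of the tumors.

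Within WT libraries alone these 3 differences were 1.58, −0.57 and 0.55 (lowest adjusted exact permutation p = 0.0571), and within p110g-/- libraries alone 1.37, −0.41 and 0.25 (0.0857), each with the sign it had over all libraries. With 4 against 3 libraries the smallest p that the 35 splits can give is 0.0286, reached by 3 pairs in WT and 2 in p110g-/-, and adjustment over 6 pairs puts these above the threshold. Atp5g1 to Atp5g3 did not reach it in p110g-/- libraries (exact permutation p = 0.257, adjusted p = 0.514).

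The other pairs did not pass. Ndufa4l2 relative to Ndufa4 had a difference of −1.04 (exact permutation p = 0.0619, adjusted p = 0.0929). WT TAM had the lowest mean log2 ratio, −6.82 ± 0.93 (SD, n = 4), while p110g-/- TAM, WT tumors and p110g-/- tumors had means of −5.17, −5.12 and −4.79. The groups overlapped, WT TAM running from −7.56 to −5.59 and p110g-/- TAM from −6.20 to −4.57. Atp5g2 to Atp5g3 differed by −0.19 (exact permutation p = 0.168, adjusted p = 0.201). Cox4i2 to Cox4i1 differed by −0.22 (exact permutation p = 0.447), with Cox4i2, the form known from lung and from low oxygen, at 9 to 27 normalized counts in TAM and 14 to 26 in whole tumor.

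**Figure D4:**
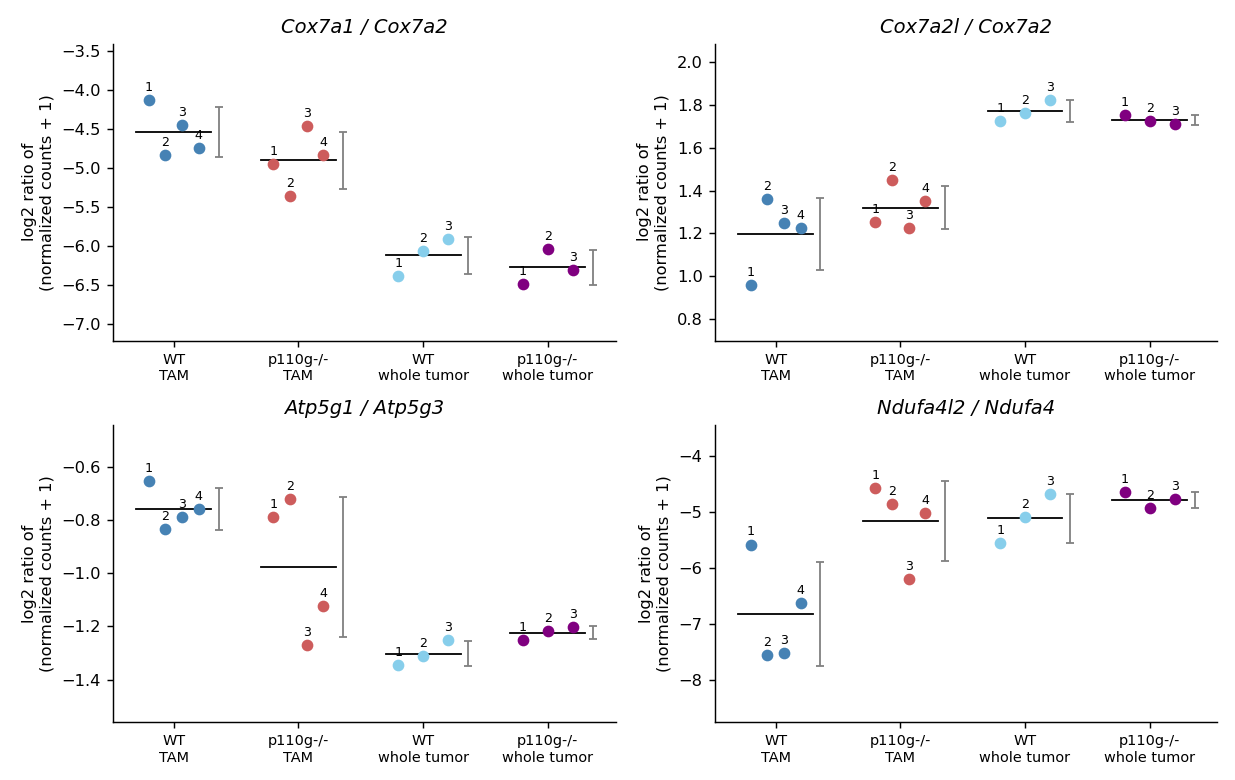
Log2 ratio of 2 forms of a subunit inside each library, for Cox7a1 to Cox7a2, Cox7a2l to Cox7a2, Atp5g1 to Atp5g3 and Ndufa4l2 to Ndufa4. Points are libraries with their label number, lines are group means and grey bars are 1 SD. TAM lie above whole tumors for Cox7a1 (−4.72 against −6.20) and below them for Cox7a2l (1.26 against 1.75).

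Within the mitochondrial genome the 13 genes do not contribute equally, although most are cut from the same long transcript. Per kilobase of gene (lengths from GENCODE M21), the highest mean levels in WT tumors were those of ATP6 at 215950 ± 9149, COX1 at 184100 ± 11604 and COX3 at 167310 ± 5331 normalized counts per kb (SD, n = 3). The lowest were those of ND6 at 8176 ± 380 and ND5 at 7108 ± 832. In WT TAM COX1 was highest at 406070 ± 240880 and ND3 lowest at 41407 ± 30655 (SD, n = 4), with ND5 next at 41803 ± 24005, and the spread between TAM libraries was wider than the step between such neighbours. Genes of complexes IV and V were thus above those of complex I in both kinds of sample, apart from ATP8 and ND1 in TAM, which stood at 100180 ± 50021 and 109500 ± 65230 per kb.

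The make-up of the mitochondrial RNA differed between TAM and whole tumor in a way that the total does not show. As a share of the 13-gene sum, ND5 was 3.87% to 4.69% in TAM and 1.32% to 1.72% in whole tumor, and ND6 was 1.20% to 1.80% against 0.403% to 0.574%. For both genes every TAM library was above every whole tumor library. ND1 was above as well, at 5.26% to 6.13% against 4.10% to 4.54%. COX3, at 11.0% to 13.5% against 14.1% to 15.4%, ATP6, at 12.2% to 13.8% against 16.4% to 17.3%, and ATP8, at 0.830% to 1.93% against 2.05% to 2.34%, were below. The 7 other genes overlapped, COX1 at 30.5% to 33.7% in TAM and 32.3% to 33.6% in whole tumor. This contrast was chosen after the values were seen and is given with no test.

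The ratio of ND5 to ND4, its neighbour on the same strand, was 0.690, 0.629, 0.582 and 0.561 in WT TAM 1 to 4 and 0.729, 0.615, 0.564 and 0.569 in p110g-/- TAM 1 to 4. It was 0.284, 0.250 and 0.239 in WT against 0.230, 0.262 and 0.275 in p110g-/- tumors. ND4L, which is joined to ND4 in a single messenger RNA, gave a ratio to ND4 of 0.119 to 0.140 in TAM and 0.131 to 0.139 in whole tumor, so this ratio overlapped where that of ND5 did not. The ratio of ND6 to ND4 was 0.178 to 0.280 in TAM and 0.0704 to 0.0917 in whole tumor. Whether reads were counted by strand is not stated in the labels, so reads of ND6 and of its antisense partner cannot be told apart.

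A second pattern followed the TAM number rather than the kind of sample. ATP8 and ATP6 overlap and share a messenger RNA, and ATP8 to ATP6 was 0.132 in WT TAM 1 and 0.142 in p110g-/- TAM 1. It was 0.0626 to 0.0872 in the TAM libraries numbered 2 to 4 and 0.122 to 0.136 in whole tumor. COX2 to COX1 was 0.271 and 0.279 in the TAM libraries numbered 1, 0.351 to 0.410 in the others and 0.244 to 0.312 in whole tumor. The TAM libraries numbered 1, also the deepest of their groups by estimated reads, were thus nearer the whole tumors in both ratios and farther from them in ND6 to ND4. The part of depth and of the library number was not tested.

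**Figure D5:**
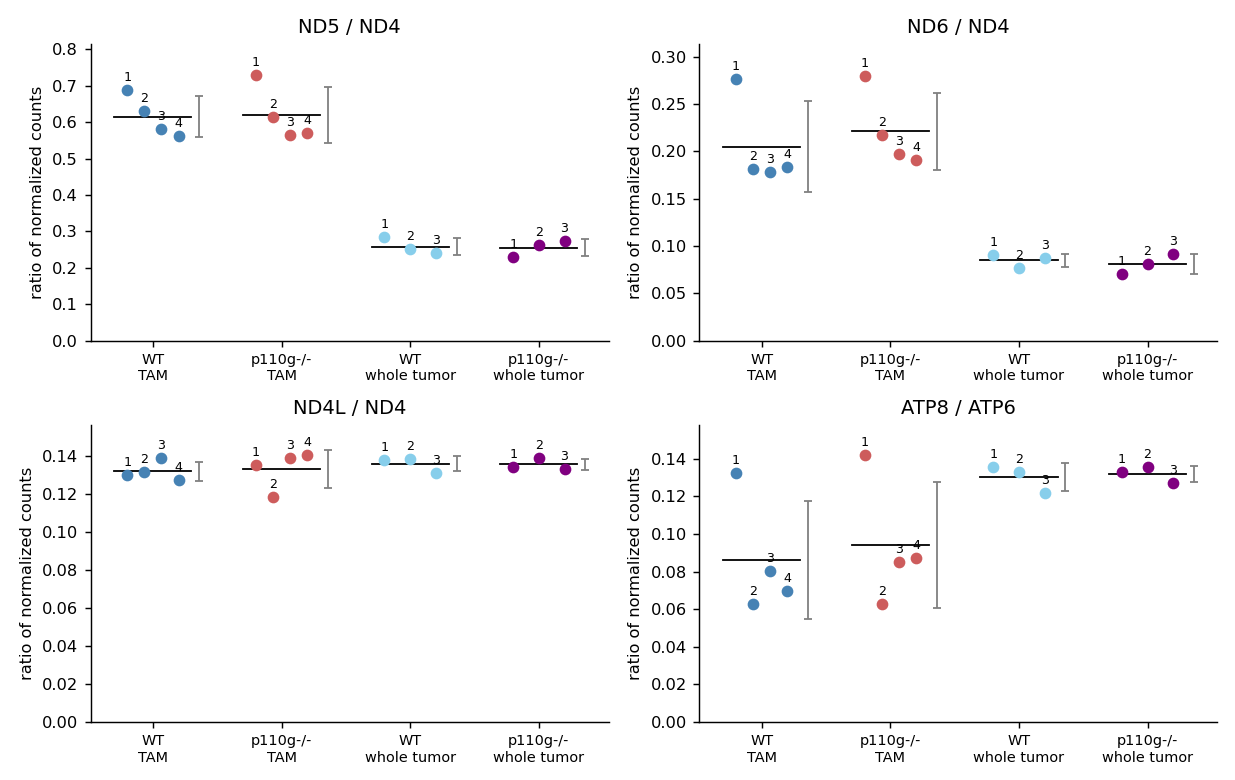
Ratios of normalized counts between mitochondrial genes in each library: ND5, ND6 and ND4L to ND4, and ATP8 to ATP6. Points are libraries with their label number, lines are group means and grey bars are 1 SD, and axes start at 0. ND5 to ND4 is 0.561 to 0.729 in TAM and 0.230 to 0.284 in whole tumor, while ND4L to ND4 overlaps, and ATP8 to ATP6 sets the TAM libraries numbered 1 apart from the other TAM.

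Other genes that serve respiration were read in 7 lists. In whole tumor the mitochondrial ribosome, which makes the 13 proteins, had 3 of 76 genes called lower and 0 higher, where 2.1% and 2.25% of all genes were, with 71 below 0 (48.4% of all genes) and a median of −0.12. The lists that follow are to be read against the same shares. The called genes were Mrpl34 (−0.43, SE 0.08, adjusted p = 0.0350), Mrps26 (−0.29) and Mrpl17 (−0.25). Of 14 electron carriers and helpers 2 were called lower, Atpif1, the inhibitor of the ATP synthase (−0.30, SE 0.05, adjusted p = 0.0293), and Slc25a4, an ADP/ATP carrier (−0.23), with a median of −0.04. Of 19 genes of the TCA cycle and pyruvate entry 1 was called lower, Idh2, the NADP-dependent mitochondrial isocitrate dehydrogenase, with 4837 in WT against 3795 in p110g-/- tumors on average (−0.35, SE 0.07, adjusted p = 0.0339). The median of this list was −0.06.

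None of the 43 assembly factors passed in whole tumor, 33 below 0 and 8 at an unadjusted p under 0.05 in the lower direction, against 12.6% of all genes lower and 13.7% higher at that level, with the largest values in Sco2 (−0.41) and Cox14 (−0.31), both of complex IV. None of 27 genes of mitochondrial transcription and RNA upkeep passed, Tefm standing at −0.31 and Fastkd1 at 0.26, with 2 higher and 3 lower at an unadjusted p under 0.05, which is no more than those shares of all genes. None of 11 nuclear regulators of respiratory genes passed, 8 above 0, with Ppargc1b at 0.34 (SE 0.16), Myc at 0.25 (SE 0.19) and 3 higher at an unadjusted p under 0.05. The cytosolic ribosome, which does not belong to respiration and shares the small size of many OXPHOS genes, had 7 of 59 called lower, 58 below 0 and a median of −0.23. Rpl11 (−0.48, SE 0.08, adjusted p = 0.0280), Rps7 (−0.47), Rps20 (−0.37) and Rpl36 (−0.35) were the largest. Its summed share of nuclear RNA was 6.35%, 6.31% and 6.62% in WT against 5.82%, 5.36% and 5.55% in p110g-/- tumors, so OXPHOS genes were not the only group with lower values in these tumors. The part of gene size in these values was not tested.

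In TAM none of the 7 lists had a called gene in limma. At an unadjusted p under 0.05 there was 1 assembly factor, 1 gene of the mitochondrial ribosome, 1 regulator and 2 cytosolic ribosomal genes in the lower direction and 1 TCA gene in the higher direction, against 2.34% of all genes lower and 3.53% higher. At that level the shares of the assembly factors, the mitochondrial ribosome and the cytosolic ribosome are near or below that background, and the other counts are of a single gene. Below 0 were 36 of 43 assembly factors (median −0.09), 66 of 76 mitochondrial ribosome genes (−0.08) and 21 of 27 genes of RNA upkeep (−0.04). Of all genes 53.2% were below 0, with a median of −0.01. Among regulators 6 of 11 were below 0, among electron carriers and helpers 4 of 14, and among TCA genes 3 of 19. The TCA gene was Sucla2, a subunit of succinyl-CoA synthetase, at 0.40 (SE 0.09, adjusted p = 0.258), with means of 1621 in WT against 2134 in p110g-/- TAM and no overlap. Idh2 stood at −0.35 (SE 0.22). The regulator was Pprc1, at −0.20 (SE 0.07, adjusted p = 0.686), and Hif1a stood at 0.20.

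The largest values of the other lists in TAM were −0.47 for Ndufaf6 and −0.34 for Tmem126b among assembly factors, −0.25 for Mrps14 and −0.24 for Mrpl47 in the mitochondrial ribosome, and −0.44 for Mterf2 and −0.26 for Pnpt1 among genes of RNA upkeep. Ucp2, the uncoupling carrier of immune cells, stood at 0.32 (SE 0.18) and Sqrdl at 0.23. In the cytosolic ribosome Rpl12 had −0.33 and Rpl13 −0.32, and 46 of 59 were below 0 with a median of −0.05. With the block 1 gene of this list was called, Rpl27, lower.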

How the data were processed

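RNA was sequenced from 8 TAM and 6 whole tumor libraries. The authors deposited normalized counts, whole numbers scaled per library, treated here as a score with no fixed unit because no label or header states the scaling formula. Bowtie2, DESeq and the build mm9 are named in the submitters' processing notes, without versions or roles. Both tables may have been scaled separately, which is not stated, so tests of genotype were run within a table. Values were taken as log2(value + 1), which understates the change of low genes. Genes needed 10 normalized counts in as many libraries as the smaller group. Genotypes were compared with limma 3.58.1 in R 4.3.3 (trended prior, two-sided, Benjamini-Hochberg adjustment over all genes tested, threshold 0.05). No count test was run, since the values are not raw counts. Ratios of forms of a subunit were compared by exact permutation.

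Depth was estimated from the step between low values, and a step was recovered within 1% in 14 of 14 simulated libraries. In the deposited values the step could be checked only where it exceeds 1 normalized count. These were the TAM libraries numbered 2 to 4, with 99.4% to 100% of low values on it. Tests were tried on simulated data. Same-numbered TAM libraries deviated together (r = 0.857, 0.532, 0.853 and 0.762 over 11281 genes), although library 4 of each genotype correlated best with library 3 of the other, so the fit with the replicate number as a block is given where it changes a call. Named genes were those called and the extremes of each complex or list. Members, lists and tests were chosen with earlier results of these data known. Other scalings, minimums, priors, weights and left-out libraries were tried.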

Additional observations from a re-analysis of the deposited data

Results flagged for a closer look

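In 8 of 176 groups of 4 TAM libraries tested, 1 library stood far from the other 3, its gap to the nearest exceeding 0.829 of the group's range. Chance flags about 1 in 20 independent groups, and this number is not above that share. The groups share the same 8 libraries, so they are not independent. All flags but that of Cox6b1 fell on a library numbered 1, whose part was not tested. In WT TAM the ratio of ND6 to ND4 was 0.277 in library 1 and 0.178 to 0.184 in the others. Cox6b1 was lowest in WT TAM 2, at 3961 normalized counts against 4932 to 5101. WT TAM 1 was lowest for Idh2 (2079 against 3040 to 3223), Sdhc (3161 against 4129 to 4204), Sucla2 (1421 against 1671 to 1697) and Uqcrc1 (5963 against 7720 to 7830). In p110g-/- TAM, library 1 was lowest for Mrpl17 (1571 against 2231 to 2360) and Slc25a4 (3384 against 4978 to 5239).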

How the results depend on the processing

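The 6 nuclear genes called lower in whole tumor depended on the fit. Their number was 0 with a constant prior, 25 with sample quality weights and 0 with all 14 libraries in a single fit. In these 3 fits 1.03%, 18.1% and 0.118% of all genes were called. It was 0 without both tumors numbered 2 or both numbered 3, where 0% of all genes were called. When 1 library was left out it was 0 to 23, where 0.228% to 15.7% of all genes were called. Scaled to the nuclear total, the median of the 73 genes was −0.10. Mitochondrial genes called in whole tumor numbered 1 with a minimum of 50 and 1 with quantile normalization, where 4.35% and 5.18% of all genes were called. They numbered 4 with weights (18.1% of all genes) and 1 without both tumors numbered 1 (8.14%). With 1 library left out they numbered 0 to 2 (0.228% to 15.7%). The median of the mitochondrial genes was −0.12 with quantile normalization, −0.12 without both tumors numbered 1, −0.34 without both numbered 3, and −0.30 to −0.10 with 1 library left out. In TAM, nuclear genes called numbered 2 with weights, where 8.01% of all genes were called. They numbered 1 with the replicate block and 1 in libraries 3 and 4 only, where 2.5% and 11.3% of all genes were. Mitochondrial genes called numbered 1 with the block over all libraries, 2 without both libraries numbered 1, and 0 without both numbered 2, 3 or 4. Over all genes these fits called 2.5%, 4.87%, 0.622%, 0.734% and 0.791%. For the difference of effects, 2 nuclear genes were called with weights and 1 mitochondrial gene with the block, where 10.1% and 2.64% of all genes were. Of the isoform pairs, 0 passed in WT libraries only and 0 in p110g-/- libraries only, where 35 splits allow no p below 0.0286. The cause was not tested.

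Same-numbered tumors did not deviate together (r = 0.0676, 0.0889 and 0.200), so they share only a number. With the replicate block 5 nuclear genes were called in whole tumor, without Ndufa7, where 5.97% of all genes were called.

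Some single genes changed sign. In TAM libraries 1 and 2 only, COX1 stood at −0.023, Atp5g1 at 0.054 and Hif1a at −0.058, and in libraries 3 and 4 only Cox7a2l stood at −0.030. In whole tumor, quantile normalization gave 0 for COX1 and 0.070 for ND2, and scaling to the nuclear total gave 0.019 for Ndufv1. Without both tumors numbered 1, ND2 was at 0.034, ND5 at 0.032, Ndufa4l2 at −0.18, Sdha at −0.0044 and Myc at −0.012. Without both numbered 2 Sdha was at −0.0048, and without both numbered 3 Ndufv1 was at 0.031. With 1 library left out, TAM values spanned −0.25 to 0.64 for COX1, −0.19 to 0.85 for COX2, −0.14 to 0.63 for COX3, −0.20 to 0.62 for ATP6, −0.055 to 0.83 for ATP8, −0.089 to 0.78 for CYTB, −0.11 to 0.71 for ND1, −0.075 to 0.71 for ND2, −0.14 to 0.77 for ND4, −0.16 to 0.78 for ND4L, −0.10 to 0.70 for ND5, −0.27 to 0.021 for Uqcrq, −0.083 to 0.25 for Uqcrh and −0.011 to 0.17 for Cox7a2l. In whole tumor they spanned −0.13 to 0.030 for ND2, −0.075 to 0.023 for Ndufv1, −0.068 to 0.36 for Ndufa4l2, −0.0037 to 0.024 for Sdha and −0.00048 to 0.43 for Myc. Of all other values of single genes, 2004 kept direction and side of the threshold, 162 lost it and 71 gained it.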
